A study of Mus musculus with 6 samples.

Results

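The Zscan4 genes are a tandem family of near-identical copies on mouse chromosome 7. They were taken as every row of the deposited gene tables whose symbol begins with Zscan4, copies named as pseudogenes included, which gave 9 of 55549 rows: Zscan4a, Zscan4b, Zscan4c, Zscan4d, Zscan4e, Zscan4f, Zscan4-ps1, Zscan4-ps2 and Zscan4-ps3. Mouse embryos of the early 2-cell stage were profiled by Smart-seq2, a full-length method that primes polyadenylated RNA with oligo-dT and amplifies the cDNA by PCR. Zygotes of the EtP group were placed from 4 h after fertilization in culture medium with 40 µM ethylparaben (EtP), a paraben used as a preservative, and most of them arrested as early 2-cell embryos. The control group is described in the labels by its name and the same stage alone. There were 3 libraries per group, and the strain, the number of embryos per library, the hour of collection and any vehicle in the control medium were not given in the sources used here. A difference in age between the groups therefore cannot be told apart from an effect of the exposure.

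Zscan4 proteins carry a SCAN domain, used for pairing between proteins of this class, and zinc fingers that bind DNA. In the mouse the family is switched on in a short burst at the 2-cell stage, when the embryonic genome is activated, and again in the rare cultured stem cells that pass through a 2-cell-like state. It is known for its link to telomere lengthening and genome stability, and the homeobox factor Dux lies upstream of it. Zscan4d has been described as the main copy of 2-cell embryos and Zscan4c as that of stem cells.

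In the mm10 assembly and GENCODE M21 the 9 copies lie within 820 kb of chromosome 7, in the order Zscan4a (minus strand, start 10794242), Zscan4b (minus, 10900740), Zscan4c (plus, 11005745), Zscan4-ps1 (minus, 11065139), Zscan4d (minus, 11161374), Zscan4e (minus, 11306378), Zscan4f (plus, 11397915), Zscan4-ps2 (plus, 11514310) and Zscan4-ps3 (plus, 11609308, ending at 11614112). The annotations differ on which copies encode protein. GENCODE M21 calls Zscan4a an unprocessed pseudogene and the other 8 copies protein-coding, whereas RefSeq calls Zscan4b, Zscan4c, Zscan4d and Zscan4f protein-coding, Zscan4a a transcribed pseudogene and Zscan4e and the 3 ps copies pseudogenes. In the longest transcript of each coding copy, the GENCODE reading frame encodes 506 residues in Zscan4c, Zscan4d, Zscan4f and the 3 ps copies and 505 in Zscan4b and Zscan4e. Each of these frames holds 4 matches to the classical zinc-finger pattern of paired cysteines and histidines. A shorter Zscan4f transcript encodes 77 residues with none.

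The copies are so alike that the reads of one can fit another. Between pairs of their longest transcripts, identity ran from 96.6% to 99.8%. Zscan4f and Zscan4-ps2 were 99.78% identical, Zscan4b and Zscan4e 99.71%, while Zscan4-ps1 was at most 97.55% identical to any other copy. A 60-base window of coding sequence in exon 4 shows which copies can be told apart in a short stretch. In Zscan4c it lies at chr7:11009181-11009240 (mm10, plus strand), starting at coding base 706. The window is given 5′ to 3′ in the sense direction for each copy, and capitals mark bases that differ from Zscan4c.
Zscan4c: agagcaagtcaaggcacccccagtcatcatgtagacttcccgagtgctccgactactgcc
Zscan4f: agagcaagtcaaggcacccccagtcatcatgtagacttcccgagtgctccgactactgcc
Zscan4-ps2: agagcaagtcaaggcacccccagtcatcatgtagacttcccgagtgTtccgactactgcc
Zscan4-ps3: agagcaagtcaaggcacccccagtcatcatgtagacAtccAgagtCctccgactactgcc
Zscan4a: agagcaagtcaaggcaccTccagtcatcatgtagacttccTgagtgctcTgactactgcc
Zscan4b: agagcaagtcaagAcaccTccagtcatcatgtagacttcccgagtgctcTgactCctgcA
Zscan4e: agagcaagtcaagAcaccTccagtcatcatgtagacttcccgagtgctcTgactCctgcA
Zscan4d: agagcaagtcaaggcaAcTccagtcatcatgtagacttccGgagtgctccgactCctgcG
Zscan4-ps1: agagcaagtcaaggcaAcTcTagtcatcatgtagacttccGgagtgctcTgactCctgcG

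Zscan4f matched Zscan4c at every base of this window, and Zscan4b matched Zscan4e. Zscan4-ps1 differed from Zscan4c at 7 of the 60 positions and Zscan4d at 5. Over the whole transcripts, 76.6% of the 100-base windows of Zscan4-ps1 were found in no other annotated transcript, 70.4% of those of Zscan4d and 60.9% of those of Zscan4a. The share was 47.8% for Zscan4-ps3, 27.2% for Zscan4c, 25.4% for Zscan4-ps2, 21.3% for the longer transcript of Zscan4b, 15.9% for the longer one of Zscan4e and 10.5% for the long transcript of Zscan4f. The files give expected counts, in which fragments that fit several genes are divided between them by estimation. The summed counts of the 9 copies do not depend on how fragments were divided among them. Fragments shared with Gm45551, a gene outside the family, are an exception. The value of a single copy can depend on the division, and so can the summed TPM, because the copies differ in length.

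Zscan4 transcripts were abundant in control and nearly lost in EtP. The 9 copies together held 6074, 6102 and 4850 expected counts in the control libraries and 238, 212 and 325 in the EtP libraries. Total counts over all libraries of both groups ranged from 11173295 to 14737152. In CPM, counts brought to a common library total after TMM scaling, which allows for differences in RNA composition, the sum was 365, 323 and 315 in control and 23.1, 23.4 and 27.0 in EtP. Every EtP library lay far below every control library, and within each group the 3 libraries were close to each other.

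The mean of the summed CPM was 334 ± 26.7 in control and 24.5 ± 2.17 in EtP (SD, n = 3 per group), a 13.6-fold difference. Fitted as 1 gene among 14365 by edgeR's quasi-likelihood test, the sum fell by 3.77 ± 0.22 (SE) on the log2 scale, or 13.7-fold. The approximate 95% interval of 10.2 to 18.4 assumes a normal spread with that SE, which is too narrow for so few libraries. The edgeR adjusted p of the sum, corrected over all tested genes by Benjamini-Hochberg, was 3.16e-06. By p this was the gene ranked 18, and by size of decrease it ranked 589. In TPM, the authors' value scaled for transcript length and depth, the sum was 272, 307 and 335 in control and 11.3, 11.9 and 15.8 in EtP, means of 305 ± 31.8 and 13.01 ± 2.45 and a 23.4-fold ratio. Both sums did not overlap between the groups, and each gave an exact two-sided permutation p of 0.1, the smallest that 3 against 3 libraries allow (0.1 also after adjustment over 9 library measures). The labels do not say whether a group's libraries stem from separate collections, so every p-value rests on a spread between libraries that could be purely technical. In bulk libraries, fewer expressing cells and less RNA per cell cannot be told apart.

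Taken one by one, 9 of the 9 copies passed the low-count filter, 8 were lower in EtP at an adjusted p below 0.05 and none was higher. Among the 14373 genes tested, 18.1% were lower, 12.5% were higher and 30.6% changed in either direction. The median log2 fold change of the copies was -6.75, against -0.19 over all tested genes. Copies with hardly any EtP counts passed the filter through the control libraries alone, so these counts and the median are a description. A fall of more than 3 on the log2 scale was called for 5.36% of tested genes, and each of the 8 copies fell by more than that. In 8 copies the control and EtP libraries did not overlap, which held for 27.9% of all tested genes in the downward direction. When libraries were scaled by their size alone, without TMM, 53% of tested genes were lower and 3.79% higher, and counts under that setting below stand against these shares.

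**Figure D1:**
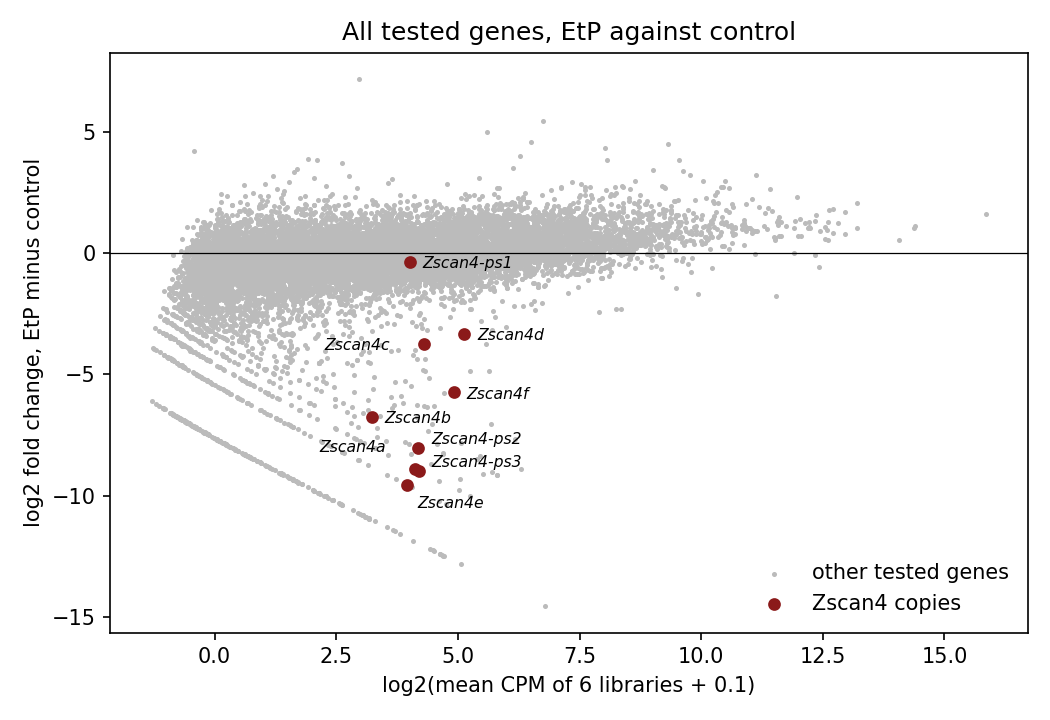
Log2 fold change (EtP minus control, vertical axis) of each tested gene against its mean level (log2 of the mean CPM of 6 libraries plus 0.1, horizontal axis). Small grey points are other genes and dark red points the 9 Zscan4 copies; 8 lie below -3 and Zscan4-ps1, at -0.38, lies within the main cloud. The slanted lines of grey points at the bottom are genes with no or hardly any EtP counts.

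Zscan4-ps1 retained the highest level of the 9 copies. It had 374, 277 and 266 expected counts in control and 124, 122 and 197 in EtP. As CPM this was 22.4, 14.7 and 17.3 in control and 11.97, 13.5 and 16.3 in EtP, so that the highest EtP library lay above the lowest control library. The mean went from 18.1 ± 3.97 to 13.9 ± 2.21 CPM, 76.8% of control, and the log2 fold change of -0.38 ± 0.25 did not pass the test (edgeR adjusted p = 0.286), which does not show that the level was the same. Among the 16 alternatives tried for this copy, 2 called it lower. With library size alone and no composition scaling the log2 fold change was -1.09 (edgeR adjusted p = 0.00653), a setting that moved the median of all tested genes by -0.727. On log2(TPM + 1) it was -0.94 (limma adjusted p = 0.0177), where TPM was 16.1, 12.96 and 17.7 in control and 6.17, 7.05 and 9.99 in EtP, without overlap.

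Zscan4d and Zscan4c fell but remained measurable in every EtP library. Zscan4d had 1131, 1146 and 966 expected counts in control and 65, 52.1 and 82.5 in EtP. Its CPM went from 63.7 ± 3.74 to 6.30 ± 0.564, a log2 fold change of -3.33 ± 0.23 (edgeR adjusted p = 6.41e-06) that left 9.88% of the control level. Zscan4c had 751, 567 and 542 expected counts in control and 34, 19.1 and 32.5 in EtP, and its CPM went from 36.7 ± 7.66 to 2.70 ± 0.592, a log2 fold change of -3.75 ± 0.29 (edgeR adjusted p = 1.24e-05) that left 7.36%. For both copies the 3 EtP libraries lay below all 3 control libraries.

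Zscan4f, the remaining copy that both annotations call protein-coding besides Zscan4b, had 1029, 1049 and 936 expected counts in control and 10.7, 14.3 and 8.91 in EtP. The fall of 5.75 ± 0.31 on the log2 scale (edgeR adjusted p = 1.97e-06) left 1.88% of the control CPM. Zscan4b had 401, 309 and 229 expected counts in control, and in EtP 4.61 in library 2 and none in libraries 1 and 3. Its log2 fold change was -6.75 ± 0.69 (edgeR adjusted p = 7.41e-05), with 1.00% of the control CPM left. Zscan4b passed the low-count filter through the control libraries alone, so this p is a description. Without EtP library 2 no count was left and the fitted log2 fold change was -11.07. The ratio of summed CPM was 116 for Zscan4b, with a 95% exact binomial interval of 49.5 to 358 that overlapped that of Zscan4f (54.7, 39.1 to 79.2), so these copies cannot be ranked by the level left.

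The other 4 copies were almost without counts in EtP. Zscan4-ps2 had 734, 620 and 487 expected counts in control and 2.03, 0 and 2.42 in EtP, a ratio of summed CPM of 284 with a 95% exact binomial interval of 111 to 1044. Zscan4-ps3 had 680, 454 and 688 in control and 1.72, in library 3 alone, in EtP, a ratio of 563 (155.5 to 4650). GENCODE annotates both as protein-coding and RefSeq as pseudogenes. Zscan4a had 584, 865 and 343 in control and 1.78, in library 1 alone, in EtP, a ratio of 553 (153 to 4573). For Zscan4e the control counts of 390, 814 and 393 stood against 0.73 in library 1 and none in the others. With 1 to 4 rounded counts in EtP the intervals cover counting error only, and they are so wide that these 4 copies cannot be ranked among themselves. All 4 had an edgeR adjusted p between 3.01e-06 and 7.18e-06. They passed the low-count filter through the control libraries alone, so these p-values are a description.

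**Figure D2:**
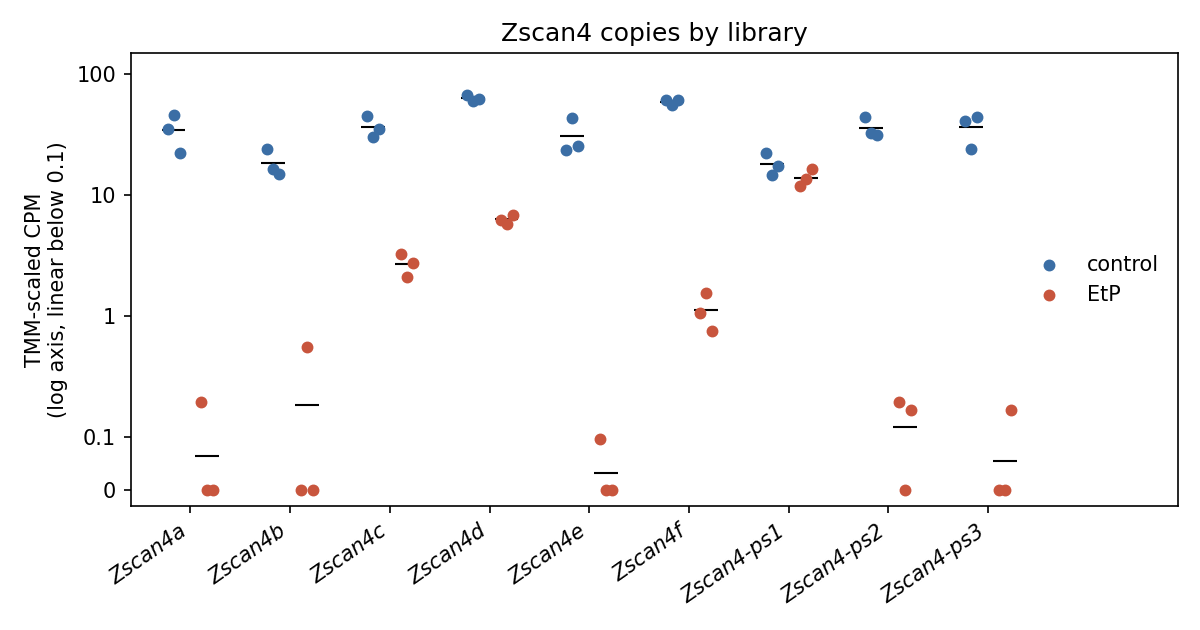
TMM-scaled CPM (vertical axis, logarithmic above 0.1 and linear below) of the 9 Zscan4 copies in each library, control in blue and EtP in red, with a black bar at each group mean. The groups overlap for Zscan4-ps1 (14.7 to 22.4 in control, 11.97 to 16.3 in EtP) and are apart for the other 8 copies.

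Levels of the copies can be compared with each other as TPM, which is scaled per length. Their order rests on how shared fragments were divided and on the estimated gene length of Zscan4f. By mean control CPM, Zscan4f lay below Zscan4d (59.3 against 63.7). In control Zscan4f was the highest at 81.4 ± 11.7 TPM, above Zscan4d at 48.9 ± 6.95, and the lowest library of the first (69.4) exceeded the highest of the second (56.5). Next came Zscan4e at 31.6 ± 12.5, Zscan4-ps3 at 28.2 ± 10.9, Zscan4c at 27.8 ± 4.17, Zscan4-ps2 at 27.2 ± 1.495 and Zscan4a at 25.9 ± 8.46 TPM, whose libraries overlapped with each other, and the highest Zscan4e library (44.5) overlapped with Zscan4d. Among these 5 no order can be given. Zscan4b at 18.1 ± 1.66 and Zscan4-ps1 at 15.6 ± 2.40 TPM had the lowest means and overlapped with each other. The highest Zscan4b library (19.99) also reached the lowest ones of Zscan4-ps3 (18.66), Zscan4e (19.61) and Zscan4a (19.99).

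In EtP the order was another one. Zscan4-ps1, the lowest in control, was the highest at 7.74 ± 2.00 TPM, followed by Zscan4d at 3.06 ± 0.542, Zscan4c at 1.30 ± 0.289 and Zscan4f at 0.67 ± 0.221. The libraries of these 4 did not overlap between neighbours in the order, although the lowest Zscan4c library (0.97) lay just above the highest Zscan4f library (0.92). The other 5 copies had mean TPM of 0.1 or less. The 6 copies named with letters, Zscan4a to Zscan4f, summed to 234 ± 27.2 TPM in control and 5.18 ± 0.405 in EtP, a 45.1-fold ratio, against the 23.4-fold ratio of all 9 copies. Without Zscan4-ps1 the sum of the other 8 went from 316 ± 23.3 to 10.6 ± 0.585 CPM, a 29.9-fold ratio.

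The make-up of the family therefore differed between the groups. Zscan4-ps1 made up 6.15%, 4.53% and 5.48% of the family's expected counts in control and 52.0%, 57.5% and 60.6% in EtP. Zscan4d went from 19.1 ± 0.706% to 25.8 ± 1.40%, and Zscan4f from 17.8 ± 1.30% to 4.66 ± 2.01%. The share of Zscan4c was 10.95 ± 1.55% in control and 11.1 ± 2.80% in EtP, with overlapping libraries (exact permutation p = 1). For the other 8 copies the libraries of the groups did not overlap, and each gave the smallest possible exact permutation p of 0.1 (0.112 adjusted over the 9 copies). Zscan4c, Zscan4d and Zscan4-ps1 together held 35.4 ± 2.46% of the counts in control and 93.6 ± 2.46% in EtP.

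**Figure D3:**
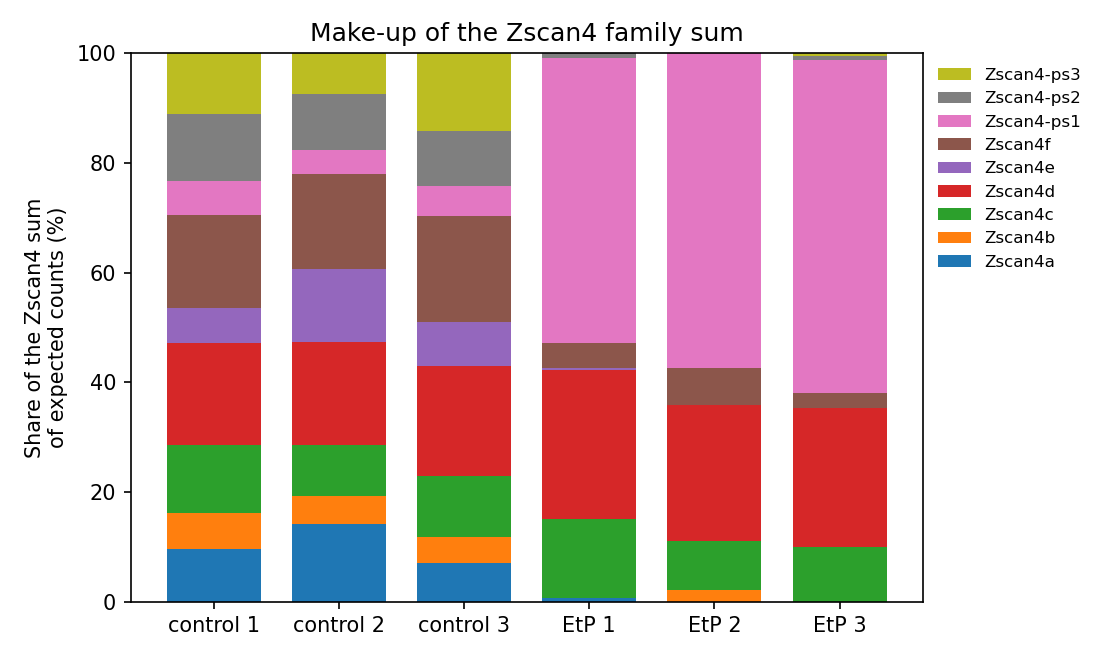
Share of each copy in the summed Zscan4 expected counts (vertical axis, percent) in each of the 6 libraries, stacked to 100%. In control no copy exceeds 20%, and in EtP the pink segment, Zscan4-ps1, takes 52.0% to 60.6%.

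Variation within control was unequal among the copies. Zscan4a ranged from 22.3 to 45.7 CPM and Zscan4e from 23.4 to 43.1, and in both the highest value was in control library 2. Zscan4-ps3 ranged from 24.01 to 44.7 CPM with its lowest value in that library. Zscan4d (60.6 to 67.9) and Zscan4f (55.5 to 61.8) were the steadiest. The summed CPM of the family varied less (SD 26.7 on a mean of 334) than the CPM of Zscan4a, Zscan4e or Zscan4-ps3 (SD 11.8, 10.8 and 10.98 on means of 34.4, 30.7 and 36.5). How far the division of shared fragments enters these differences was not tested.

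Zscan4f has a long transcript of 1829 bases with 4 exons and a short one of 521 bases with 3 exons and 231 coding bases. The deposited gene length varies between libraries. In the library checked it lay between the shortest and the longest transcript in 16083 of 16083 genes with several transcripts and a count. Any average would do so, and how the length was weighted was not tested. Read as an average weighted by estimated abundance, the gene length gives the short transcript 38.1%, 43.7% and 32.9% of Zscan4f transcripts in control libraries. In EtP the length was that of the long transcript, a short share of 0 in each library, estimated from 10.7, 14.3 and 8.91 expected counts. Few counts stand behind the EtP values, and a difference in transcript use was not tested. On the shorter average length Zscan4f led the control copies in TPM, whereas Zscan4d had the higher mean CPM (63.7 against 59.3).

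Copies whose sequence is the most distinct include those that kept the highest level in EtP, but the correspondence was partial. Zscan4-ps1 and Zscan4d had the largest shares of 100-base windows of their own and kept 76.8% and 9.88% of control. Zscan4a came next in distinctness (60.9%) and kept 0.187%, and Zscan4-ps3 (47.8%) kept 0.151%. Zscan4c, with 27.2%, kept 7.36%. In the alignment of the longest transcripts, 1710 columns were present in all 9 copies. A column was counted only where all remaining copies carried the same other base, so the counts are lower bounds. On that rule, 14 columns had a base private to Zscan4-ps1, 14 one private to Zscan4d, 12 to Zscan4-ps3 and 9 to Zscan4a. In 4 columns the base was shared by Zscan4-ps1 and Zscan4d alone, and in none by Zscan4c, Zscan4d and Zscan4-ps1 alone.

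**Figure D4:**
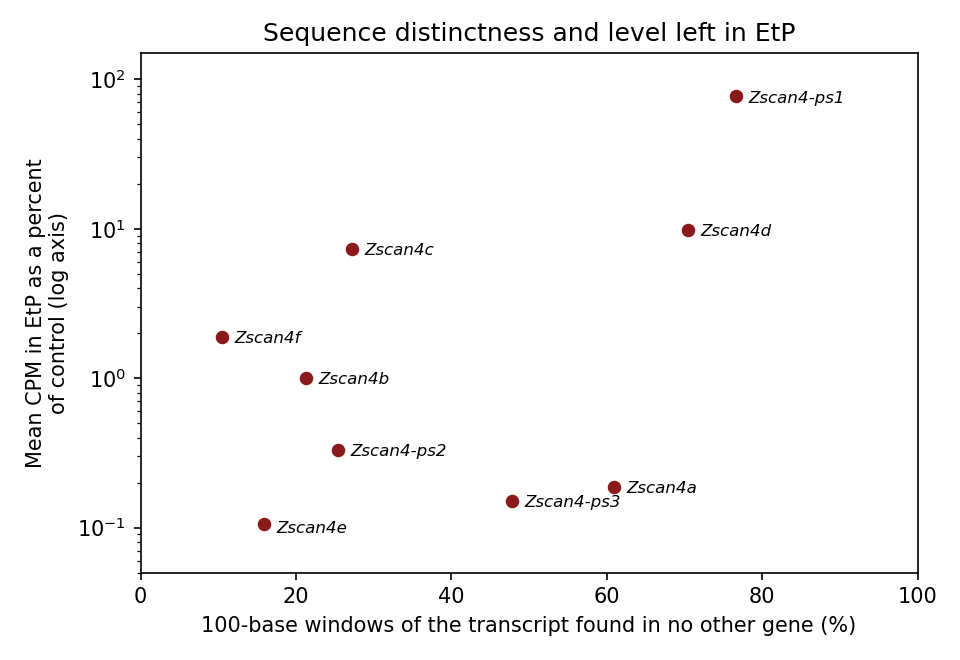
Mean CPM in EtP as a percent of control (vertical axis, logarithmic) against the percent of 100-base windows of each copy's longest transcript found in no other gene (horizontal axis). Each point is 1 of the 9 copies; Zscan4-ps1 and Zscan4d lie at the upper right, and Zscan4a and Zscan4-ps3, at 60.9% and 47.8%, lie near the bottom.

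The 4 copies for which RefSeq gives a promoter (GRCm38.p6) show how alike the regions upstream of the start are in copies with unequal estimated levels left. The 250 bases before each start are given 5′ to 3′ in the direction of transcription, with capitals marking TATAAAA and CCAAT. They lie at chr7:11005495-11005744 (plus strand) for Zscan4c, chr7:11397665-11397914 (plus) for Zscan4f, chr7:11166149-11166398 (minus) for Zscan4d and chr7:10905051-10905300 (minus) for Zscan4b.
Zscan4c: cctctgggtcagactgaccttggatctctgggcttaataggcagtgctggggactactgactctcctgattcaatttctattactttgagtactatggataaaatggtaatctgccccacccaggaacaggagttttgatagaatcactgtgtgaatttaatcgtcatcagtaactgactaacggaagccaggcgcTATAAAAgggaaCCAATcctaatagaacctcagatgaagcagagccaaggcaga
Zscan4f: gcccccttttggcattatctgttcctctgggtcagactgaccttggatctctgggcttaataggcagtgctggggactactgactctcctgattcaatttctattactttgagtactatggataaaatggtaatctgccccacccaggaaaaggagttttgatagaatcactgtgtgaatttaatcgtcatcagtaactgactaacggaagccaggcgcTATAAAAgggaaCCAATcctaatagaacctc
Zscan4d: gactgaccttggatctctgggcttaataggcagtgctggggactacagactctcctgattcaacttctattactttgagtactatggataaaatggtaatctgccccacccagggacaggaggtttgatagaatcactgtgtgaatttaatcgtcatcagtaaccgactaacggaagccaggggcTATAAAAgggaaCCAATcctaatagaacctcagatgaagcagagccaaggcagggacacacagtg
Zscan4b: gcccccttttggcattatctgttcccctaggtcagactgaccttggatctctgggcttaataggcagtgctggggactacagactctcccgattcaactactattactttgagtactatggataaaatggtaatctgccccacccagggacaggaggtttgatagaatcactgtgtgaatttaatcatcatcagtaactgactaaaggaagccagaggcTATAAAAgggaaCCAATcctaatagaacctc

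All 4 hold TATAAAA, the core of a TATA box, and shortly after it CCAAT, with no overlap. Searched on both strands, the first motif occurs in 4.98% and the second in 33.8% of the 32851 RefSeq promoters of the same length. TATAAAA begins 31 bases before the annotated start in Zscan4b and Zscan4f, 54 in Zscan4c and 65 in Zscan4d, and the stretch from TATAAAA to CCAAT reads the same in the 4 promoters. Aligned, Zscan4c and Zscan4f differed at 1 of 227 bases (99.6% identical). By estimated counts they kept 7.36% and 1.88% of control, with ratios of summed CPM of 13.4 (10.8 to 16.8, 95% exact binomial interval) and 54.7 (39.1 to 79.2). These intervals cover counting error only, and both levels can depend on how shared fragments were divided. The other pairs of promoters were 94.7% to 97.2% identical. TGCACAC, a sequence described as bound by a Zscan4 protein, was found in none of these 4 windows and in 3.67% of all promoters. Promoters of the other 5 copies were not analysed here.

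By position the 3 copies with the highest level left in EtP are consecutive: Zscan4c at 211.5 kb from the start of Zscan4a, Zscan4-ps1 at 270.9 kb and Zscan4d at 367.1 kb. On either side, Zscan4b kept 1.00% and Zscan4e 0.105%. Between the first and last copy the tables hold 44 other annotated genes, most of them pseudogenes, of which 5 had enough counts to be tested. Of these, 3 were lower and none higher. The 3 lower genes had few or no EtP counts and passed the filter through the control libraries, so this count is a description. In the 500 kb on each side 0 of 6 tested genes were lower and 1 was higher. This was Gm10179 (8.02 to 16.2 CPM, edgeR adjusted p = 0.0166). Over all tested genes 18.1% were lower and 12.5% higher. The 3 lower genes and Gm10179, named here after their values were seen, are predicted loci without a known function.

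Among the neighbours inside the cluster, Gm18204, next to Zscan4d, had 4.197 ± 1.67 CPM in control (216 counts) and no count in EtP. Gm6909, the next gene after it, went from 3.37 ± 0.695 to 0.465 ± 0.125 CPM (edgeR adjusted p = 0.000843). Gm45551, between Zscan4f and Zscan4-ps2, went from 1.87 ± 0.316 CPM (96 counts) to no count, and it is the only gene outside the family that shares 100-base windows with Zscan4 transcripts. Gm7789, between Zscan4b and Zscan4c, had 16.6 ± 4.45 CPM in control and 24.1 ± 3.14 in EtP (edgeR adjusted p = 0.141), and Gm45598, near Zscan4f, 5.04 ± 0.918 and 3.76 ± 0.626 (edgeR adjusted p = 0.309). Outside the cluster Nlrp4b, an oocyte gene of the NLR class, had 188 ± 31.2 CPM in control and 201 ± 13.7 in EtP (edgeR adjusted p = 0.757). Under library size alone, 7 of the 11 tested neighbours were lower and none higher, where 53% of all tested genes were lower. The call of Gm10179 was lost without EtP library 1, when no neighbour was higher, and 2 to 3 neighbours were higher without EtP library 2 or when any control library was left out.

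**Figure D5:**
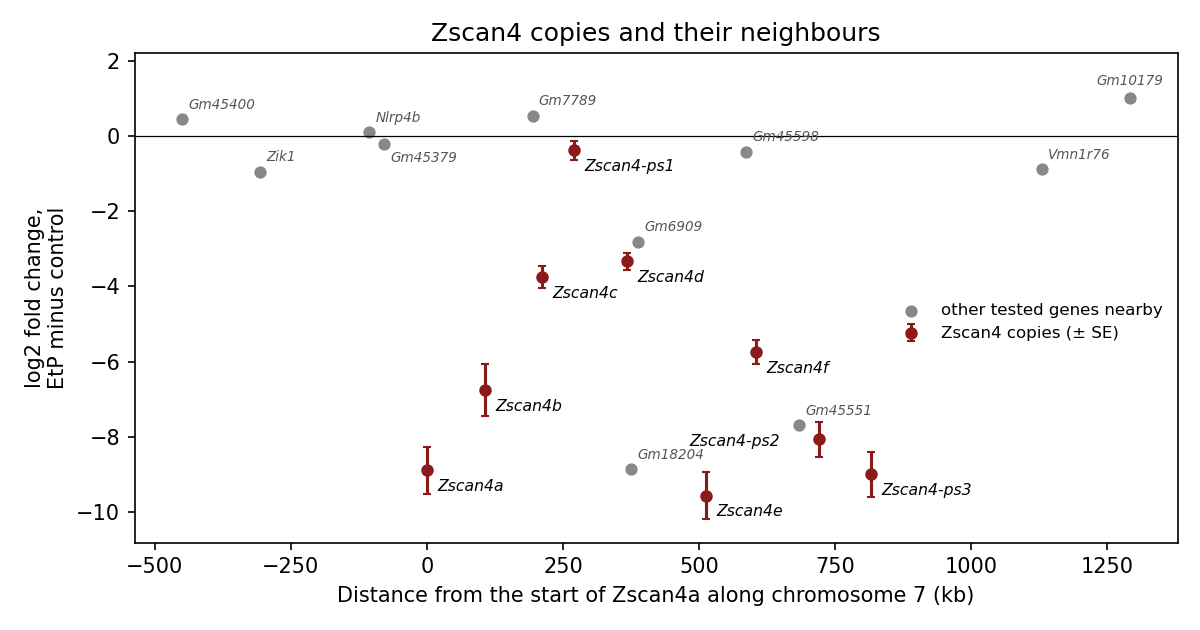
Log2 fold change (EtP minus control, vertical axis) of the 9 Zscan4 copies (dark red, bars are the SE of the fit) and of the 11 tested neighbours (grey) by distance of their lowest coordinate from that of Zscan4a along chromosome 7 (kb, horizontal axis). Zscan4c, Zscan4-ps1 and Zscan4d, the 3 highest copies, are consecutive copies, and of the grey points near them Gm7789 lies above 0, Gm6909 near Zscan4d and Gm18204, the closest to Zscan4d, at the bottom with no EtP count.

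Of 5 tested activators upstream of the 2-cell programme, 2 were lower and 1 higher, against 18.1% and 12.5% of all tested genes. Their median log2 fold change was -0.96, against -0.19 over all tested genes. Duxf3, the mouse Dux gene, had 13.7, 15.8 and 29.7 CPM in control and 0.869, 2.10 and 1.33 in EtP. Its log2 fold change was -3.79 ± 0.43 (edgeR adjusted p = 0.000137), and its groups did not overlap. For the Zscan4 sum the log2 fold change was -3.77, a value that depends on Zscan4-ps1. The ratio of mean summed CPM was 13.6-fold with that copy and 29.9-fold without it. The median log2 fold change of the 9 copies was -6.75. Dppa4, a chromatin-bound activator of Dux, fell from 6.85 ± 1.60 to 3.51 ± 0.625 CPM (edgeR adjusted p = 0.0347), while its partner Dppa2 had 103 ± 4.81 and 97.9 ± 4.70 (edgeR adjusted p = 0.789). Nelfa, a maternal factor described to drive a 2-cell-like state, rose from 88.2 ± 21.5 to 150 ± 17.9 CPM (edgeR adjusted p = 0.0319). The call of Nelfa was lost without control library 2, EtP library 1 or EtP library 3. Only 1 activator was lower under RLE scaling and without control library 2 or whichever EtP library was left out, and 3 were lower without control library 1. Scaled by library size alone, 4 activators were lower and none higher, against 53% and 3.79% of all tested genes.

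Of 16 tested repressors of the 2-cell state, none was lower and 5 were higher, against 18.1% and 12.5% of all tested genes. Their median log2 fold change was 0.21, against -0.19 over all tested genes. Ncl (nucleolin), which takes part in silencing Dux, rose by 1.41 on the log2 scale (142 ± 33.7 to 376 ± 8.85 CPM, edgeR adjusted p = 0.00114). L3mbtl2 and Pcgf6, subunits of a variant Polycomb complex, rose by 1.29 and 1.08, and the histone methyltransferase gene Setdb1 by 1.22. Scaled by library size alone, 4 repressors were lower and 1 higher, against 53% and 3.79% of all tested genes.

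Of 6 reported partners and targets of Zscan4, none was lower and 2 were higher, against 18.1% and 12.5% of all tested genes. Dnmt1, the maintenance DNA methyltransferase gene, was at 102, 97.0 and 98.9 CPM in control and at 1348, 1276 and 1573 in EtP, a log2 fold change of 3.82 ± 0.22 (edgeR adjusted p = 2.55e-06) and the opposite of the Zscan4 copies in direction. Hdac1, a histone deacetylase gene, rose from 19.3 ± 4.45 to 38.1 ± 10.9 CPM (edgeR adjusted p = 0.0241). Uhrf1, which guides Dnmt1 to DNA, had 224 ± 83.0 CPM in control and 299 ± 5.55 in EtP (edgeR adjusted p = 0.281), and Trim28, a corepressor gene, 10.8 ± 4.52 and 12.8 ± 2.70 (edgeR adjusted p = 0.621). Only 1 of the 6 was higher without control library 2, EtP library 1 or EtP library 2. Without composition scaling 1 was lower and 1 higher, against 53% and 3.79% of all tested genes.

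Of 17 tested genes of telomere maintenance and recombination, 6 were higher and 1 was lower, against 12.5% and 18.1% of all tested genes. The lower one was Rtel1, a helicase gene, named after its value was seen. The median log2 fold change of the list was 0.48, against -0.19 over all tested genes. Nbn and Mre11a, of the complex that senses broken DNA ends, rose by 1.64 and 0.91 on the log2 scale, the telomere-binding factor gene Terf1 by 1.46 and the chromatin remodeller gene Atrx by 0.95. No gene of the list was lower whichever EtP library was left out, and 3 were lower without control library 1. Without composition scaling the split was 5 lower and 2 higher, against 53% lower over all tested genes.

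Of 16 tested SCAN zinc-finger genes outside Zscan4, none was lower and 1 was higher, against 18.1% and 12.5% of all tested genes. The higher one was Zkscan14 (21.4 ± 3.04 to 38.9 ± 5.43 CPM, edgeR adjusted p = 0.0161). The median log2 fold change of the list was 0.01, against -0.19 over all tested genes. The call of Zkscan14 was lost without EtP library 1 or EtP library 3, and 2 genes were higher without control library 1. Zkscan16 had 17.9 ± 0.595 CPM in control and 24.1 ± 1.63 in EtP (edgeR adjusted p = 0.148), and Zkscan17 21.4 ± 6.34 and 14.8 ± 3.09 (edgeR adjusted p = 0.177). Under library size alone 9 of the 16 were lower and none higher, close to the 53% of all tested genes. The Zscan4 copies were 9 lower under that setting and 8 lower under TMM, RLE and upper-quartile scaling.

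Of 23 tested genes outside Zscan4 known for brief expression at the 2-cell stage, 23 were lower, against 18.1% of all tested genes. Their median log2 fold change was -7.76, against -0.19 over all tested genes. Zfp352, a zinc-finger gene of this stage, was at 99.0, 67.2 and 85.2 CPM in control and at 0.193, 0.221 and 0.248 in EtP. Gm4027 fell from 157 ± 21.4 to 0.317 ± 0.0242 CPM, Pramef25 from 31.7 ± 3.54 to 0.124 ± 0.0365, and Gm4340, at 220 ± 46.2 in control, had no count in EtP. Tcstv1 kept the most, from 56.1 to 13.8 CPM (log2 fold change -2.02, edgeR adjusted p = 0.000294), and was chosen after its value was seen. Many of these genes had hardly any EtP counts and passed the filter through control alone, so their count is a description. The list was also chosen with earlier results of these data known, so the count is no independent support.

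The genes whose profile over the 6 libraries was most like that of the family sum were sought among 6049 named genes with a mean of at least 10 CPM, by Euclidean distance between centred log2(CPM + 1) values. The nearest was Tcstv3 (distance 0.533), which fell from 31.8 ± 7.46 to 1.75 ± 0.346 CPM. BC147527 (0.908), Snora47 (0.921), Usp17lc (0.959), D13Ertd608e (1.03), Usp17lb (1.04), AF067061 (1.08) and Dnajb9 (1.12) followed. Of these 8, Tcstv3, Usp17lc, Usp17lb, D13Ertd608e and AF067061 were in the list of 2-cell-transient genes, itself chosen with earlier results of these data known. Dnajb9, a chaperone gene of the endoplasmic reticulum, kept 4.00 ± 0.411 of 34.1 ± 4.75 CPM. Pearson's r with the sum was between 0.979 and 0.999 for the 8 genes, over 6 libraries that fall into 2 groups which all of these genes separate.

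Several features of the libraries moved with the same contrast. Control libraries had 25971 to 26103 genes with a count and EtP libraries 19321 to 19713, and the TMM factors of control libraries (1.198 to 1.385) were above those of EtP libraries (0.738 to 0.833). The embryo and oocyte markers, of which 10 of 10 were tested, were 9 higher and none lower. Over all tested genes 12.5% were higher and 18.1% lower. The summed level of the markers was 7566 to 11650 CPM in control and 25010 to 28110 in EtP. Among them Padi6, an oocyte gene of the cortical lattice, rose from 380 ± 49.2 to 2183 ± 412 CPM and Bmp15, an oocyte growth factor gene, from 3002 ± 254 to 10369 ± 467. Under library size alone 4 of these 10 were higher and none lower, against 3.79% and 53% of all tested genes. The part of these features in the Zscan4 result was not tested.

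Markers of cumulus cells, which surround the egg, were low: 5 of 11 were tested, 2 were at 0 in all libraries, and the list summed to 35.1 to 43.4 CPM in control and 32.8 to 36.9 in EtP. Nearly all of that was Nr5a2, which embryos express as well (34.3 ± 4.01 and 33.0 ± 2.71 CPM, edgeR adjusted p = 0.872). The 3 lower ones, Fshr, Ptgs2 and Tnfaip6, named after their values were seen, had at most 1.86 CPM on average in control, and 1 marker was lower without control library 2. Of 8 sperm markers 2 were tested and 2 were at 0 in all libraries, with a sum of 7.01 to 15.1 CPM in control and 3.64 to 4.53 in EtP, and Prm2, a sperm chromatin protein gene, was lower (7.44 ± 3.16 to 2.71 ± 0.243 CPM, edgeR adjusted p = 0.0111), a call lost without EtP library 1. The part of either marker list in the Zscan4 result was not tested.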

How the data were processed

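Reads were trimmed with cutadapt 1.16 and aligned with STAR to mm10, per the submitters' processing notes; neither the STAR version nor the counting program is named there. The deposited tables hold, per gene and library, expected counts (the authors' estimated counts, 10.6% to 16% of them not whole within 0.005), TPM scaled by the authors for length, a gene length, and deposited FPKM, which were not used. The protocol does not mark strand. The members and gene lists were chosen with earlier results of these data known. All 9 Zscan4 identifiers matched GENCODE M21.

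Expected counts were rounded and tested with edgeR 4.0.16 in R 4.3.3 (filterByExpr defaults, TMM, robust quasi-likelihood, group as the only term, Benjamini-Hochberg threshold 0.05), with values as mean ± SD. The SE is the absolute log2 fold change over the square root of F. The fit was also run on simulated data without a shift in RNA composition, where most of the smaller changes were missed. A gene that was not called may therefore still differ. For the family sum, the copies were replaced by their total. Alternatives used limma 3.58.1, DESeq2 1.42.0, other scalings and filters, and left-out libraries. Library totals were 11173295 to 14737152; without molecular identifiers, counting intervals cover counting error only. Transcripts were aligned with MAFFT 7.526. All copies are named, and from each list up to 4 tested genes, ranked by p among those averaging 5 CPM or more. The values of 1 listed gene are not reported here.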

Additional observations from a re-analysis of the deposited data

How the results depend on the processing

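The family sum was lower, and past the threshold, in 20 of 20 alternatives, with log2 fold changes of -5.89 (without Zscan4-ps1 and Zscan4d, chosen after seeing the data) to -3.61 and, leaving out 1 library at a time, of -3.81 to -3.61. Between 8 and 9 copies were called lower and none higher in 16 alternatives. Over all genes, library size alone gave 7617 lower and 545 higher, an adjusted p below 0.01 gave 1403 and 918, and leaving out 1 library gave 1659 to 2887 lower and 1096 to 2637 higher, against 2601 and 1798; the lowest counts came without EtP library 1. As TPM, the share of Zscan4f in the family changed by -21.28 percentage points and that of Zscan4-ps2 by -8.50. Among Zscan4a to Zscan4f alone, the share of Zscan4c rose by 10.78 and that of Zscan4d by 34.5. The difference of 0.15 percentage points for Zscan4c had the opposite sign without control library 2 (-0.675) and without EtP library 1 (-1.44), and ranged from -1.44 to 1.19 with each library left out. The cause was not tested.

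Whether replicate numbers pair the libraries could not be settled. Deviations of same-numbered libraries correlated at 0.184, 0.00518 and 0.363. EtP libraries 1 and 3 correlated best with the control library of the same number, and EtP library 2 with control library 1 (0.152). With the replicate block the family sum was -3.77, 8 copies were lower and none higher, and 3022 genes were lower and 2295 higher. Single copies with fewer than 5 EtP counts are limited by depth.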
